A study of Mus musculus with 7 samples.

Results

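The miR-216 sites that lie in messenger RNA exons of neonatal mouse retina numbered 271 of the 394 distinct sites deposited by the study. A site is an interval (chromosome, start, end, strand) where RNA near an Argonaute crosslink matches miR-216a-5p or miR-216b-5p. An interval was taken when its midpoint lay in a 3′ UTR or in coding sequence of a protein-coding transcript on the same strand in GENCODE mouse release M21 (mm10). The 271 sites made up 68.8% of all sites (exact binomial 95% interval 64.0 to 73.3%) and fell in 259 genes, of which 248 had 1 site, 10 had 2 and Dyrk2 had 3. The other 123 sites lay in introns (76), between genes (26), in noncoding exons (19) and in 5′ UTRs (2).

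The sites come from PAR-CLIP, an assay in which cells take up 4-thiouridine, ultraviolet light ties the modified base to a bound protein, and an antibody then recovers that protein together with the attached RNA. The tissue was retina of postnatal day 0 CD-1 mice, with no other genotype named, and was kept as explants for 24 h with 0.1 mM 4-thiouridine before light of 365 nm (about 300 mJ/cm2) was applied. An Argonaute antibody was used for 5 libraries and control IgG for 2, each library from 6 pooled retinas. The 2 deposited tables pool the Argonaute libraries, and the score of a position is the number of Argonaute libraries that share its crosslink, from 2 to 5. Neither IgG values nor values of individual Argonaute libraries were analysed here, the read depth behind a position is unknown, and the 95% intervals cover counting error only. Positions are not replicates of a condition, several can share a transcript, and 2 sites can share 1 crosslink, as in Spock2. The 14054 crosslinks included 10260 in messenger RNA exons, and every one of the 10989 exonic crosslinks that could be placed on a transcript sat on T, for which 4-thiouridine stands in. Abundant RNAs are favoured in such a table, so a gene without a position is not shown to be unbound.

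Argonaute proteins carry microRNAs, and a microRNA finds a messenger RNA mainly by pairing of its seed, a short stretch near its 5′ end. A paired messenger RNA is translated less and broken down sooner, and most known sites lie in 3′ UTRs, where ribosomes do not pass. The study's title places miR-216b and Foxn3, a forkhead transcriptional repressor, in the generation of amacrine cells, a class of mostly inhibitory retinal interneurons. miR-216a and miR-216b are made from neighbouring genes and are best known from the exocrine pancreas.

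Both mature microRNAs are shown first because their seeds set which letters count as a site; capitals mark the seed, bases 2 to 8. The sequences are from RefSeq (GRCm38.p6), where miR-216a-5p lies at chr11:28757018-28757039 and miR-216b-5p at chr11:28746204-28746225, both on the plus strand.
miR-216a-5p: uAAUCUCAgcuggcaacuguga
miR-216b-5p: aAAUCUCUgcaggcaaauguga
The seeds share 6 of 7 bases, and the whole molecules share 18 of 22 positions. The messenger RNA match to the full seed is therefore TGAGATT for miR-216a and AGAGATT for miR-216b, and the core GAGATT serves both. An A after the 7mer makes an 8mer, the strongest class of match known in general, while TGAGAT or AGAGAT alone, without the final T, is an offset 6mer that leaves out base 2 of the microRNA.

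The sites with the broadest support are shown next: 13 sites had a crosslink in 5 Argonaute libraries, and 12 of them are given with mm10 coordinates of the deposited interval and up to 30 bases of the GENCODE M21 transcript, capitals marking the matched bases. The first 9 lie in 3′ UTRs and the last 3 (Asxl1, Eif5, Strbp) in coding sequence.
Foxn3, chr12:99196033-99196038, minus strand: tctgtttaaagGAGATTgaagccatagaaa
Mybl1, chr1:9668434-9668439, minus strand: ttgctgctatgAGAGATggaaagagcgacc
Arfgef1, chr1:10138360-10138367, minus strand: tattcttactcTGAAGATTtttgcacactc
Atxn1l, chr8:109726629-109726634, minus strand: ttgtacttttgTGAGATcctttttgctgtt
Eif4g2, chr7:111072332-111072337, minus strand: ctgaatactgtAGAGATgcactttgctcag
Megf9, chr4:70432646-70432651, minus strand: ttactgtactaAGAGATgtaacttaggaag
Rnf6, chr5:146209562-146209568, minus strand: agttttaagatAGAGATTgtttactgaagc
Slc16a1, chr3:104656003-104656010, plus strand: taacagtgtcaTGAAGATTataatatgtgc
Synpr, chr14:13614096-13614101, plus strand: gaatgtaaatcAGAGATctgtagtcctcat
Asxl1, chr2:153402066-153402071, plus strand: gtgccttgtggTGAGATaataaattatggc
Eif5, chr12:111543562-111543568, plus strand: gaacttgccaaAGAGATTcgtgtcaaagca
Strbp, chr2:37603089-37603094, minus strand: gaatgcactaaTGAGATTAaatcagatcag
Of these 12, Strbp holds an 8mer, Rnf6 and Eif5 hold a 7mer, and Foxn3 holds the 6-base core that both microRNAs share. Arfgef1 and Slc16a1 hold TGAAGATT, a match with an extra A inside the seed pairing, and the other 6 hold an offset 6mer.

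Sites with an 8mer are shown as a second set, because they pair with the whole seed. Shown are those with a crosslink in 3 or 4 libraries and, beside them, the second site of Ccnj. Lrch3 and Rab1a lie in coding sequence and the rest in 3′ UTRs.
Zfp26, chr9:20433945-20433950, minus strand: tagactgccttTGAGATTAactaaatgatc
B230219D22Rik, chr13:55701093-55701098, plus strand: taaaatgccttTGAGATTAaaatatagatt
Zdhhc24, chr19:4885328-4885333, plus strand: ctcctaagcaaTGAGATTAaatatgtgcac
Rab1a, chr11:20224738-20224743, plus strand: acgatggcagcTGAGATTAaaaagcgaatg
Rnf2, chr1:151470384-151470389, minus strand: attaaaataccAGAGATTAtggagatattt
Lrch3, chr16:32975767-32975773, plus strand: cttcgagtggcAGAGATTAccaaagagcaa
Ccnj, chr19:40848350-40848355, plus strand: ctgttttgtttTGAGATTActggaccatca
Ccnj, chr19:40848385-40848391, plus strand: gtgtactgtgaAGAGATTAatgatgtgtgt
Ccnj, a cyclin, thus carried an 8mer for miR-216a and an 8mer for miR-216b in the same 3′ UTR, at 2254 and 2290 nt from the stop codon of a UTR of 2474 nt. The miR-216a site had 2 libraries and the miR-216b site had 3.

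The name that the authors gave a site follows its letters, and with them the class of match. Intervals named miR-216a-5p (79) read TGAGAT in 70 cases and TGAAGATT in 9, and intervals named miR-216b-5p (79) read AGAGAT in 73 cases and AGAAGATT in 6. Intervals named miR-216a/b-5p (113) held GAGATT wherever they could be read, as GAGATT (80), AGAGATT (28) or TGAGATT (2). The transcript around the interval was therefore read again, which was possible for 268 sites (not for Atf7, Carmil1 and L1cam). An 8mer was present at 19 sites (7.09%, 4.32 to 10.8%) and a 7mer to bases 2 to 8 at a further 68 (25.4%, 20.3 to 31.0%). The core with a following A was found at 4 sites and the bare core at 19. Offset 6mers made up 143 sites (53.4%, 47.2 to 59.5%), and 15 sites (5.60%) held the form with the extra A. Among the 87 sites with a full 7mer or 8mer, 56 matched miR-216a and 31 matched miR-216b, so every site with full seed pairing carried the shared name miR-216a/b-5p.

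**Figure D1:**
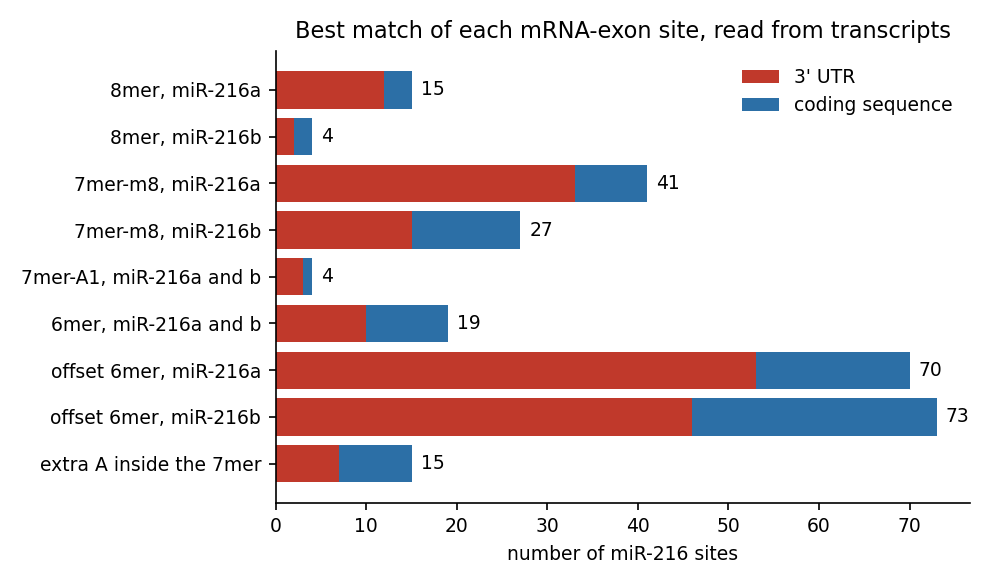
Number of miR-216 sites in messenger RNA exons (horizontal axis) by the best match read from the transcript and the microRNA matched (vertical axis), with colours for 3′ UTR and coding sequence. Offset 6mers are the largest class with 143 of 268 sites, and 19 sites hold an 8mer.

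The same letters were counted at all Argonaute crosslinks, the sites included, and then away from the sites. In 10257 windows of 41 nt centred on crosslinks in messenger RNA exons, searched on the transcribed strand, TGAGATT was present in 61 (0.595%) and AGAGATT in 44 (0.429%). GAGATT, which both contain, was present in 138 (1.35%), TGAGAT in 152 (1.48%) and AGAGAT in 132 (1.29%). The 8mers TGAGATTA and AGAGATTA were present in 13 and 7 windows (0.127% and 0.0682%). These counts overlap, since a window with an 8mer also counts for each shorter motif within it, and most of the windows with a motif are those of the sites. In the 9962 windows of crosslinks more than 20 nt from any site, TGAGATT was present in 6 (0.0602%), AGAGATT in 8 (0.0803%), GAGATT in 24 (0.241%), and TGAGAT and AGAGAT in 21 each (0.211%). These low counts follow from how the sites were listed and are no test.

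The 8mer sites named here covered several kinds of gene. Zfp26, Zfp322a, Zic5 and Cebpg encode transcription factors, of which Zic5 is a zinc finger protein of neural development and Cebpg a bZIP factor. Rnf2, a ubiquitin ligase of Polycomb repressive complex 1, and Phc3, a further subunit of that complex, both had an 8mer in the 3′ UTR, with 3 and 2 libraries. A second crosslink within 20 nt of the Phc3 site had 5 libraries. Marcks, an actin-binding substrate of protein kinase C, had an 8mer 2704 nt into a 3′ UTR of 2733 nt. Kpna3 (an importin alpha), Ndrg4, Nap1l2 (a neuronal nucleosome assembly protein), Zdhhc24 (a palmitoyltransferase) and Ndufv2 (a subunit of mitochondrial complex I, in coding sequence) held the others, with Strbp, Rab1a, Lrch3, B230219D22Rik and Ccnj shown above. Of the 19 sites with an 8mer, 9 had 3 or more libraries (47.4%, 24.4 to 71.1%), as had 23 of 68 with a 7mer (33.8%), 32 of 143 with an offset 6mer (22.4%) and 8 of 15 with the extra A (53.3%).

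The number of libraries that share a crosslink was compared between the sites and the other crosslinks in messenger RNA exons, taken as the 9965 that lay more than 20 nt from any deposited miR-216 site. A crosslink in 3 or more libraries was found at 77 of 271 sites (28.4%, 23.1 to 34.2%) and at 2963 of 9965 other crosslinks (29.7%, 28.8 to 30.6%), which gives an odds ratio of 0.938 (0.708 to 1.23; Fisher's exact test, two-sided, p = 0.686, Benjamini-Hochberg adjusted p = 0.762 over the 10 tests made here). In 3′ UTRs the shares were 55 of 181 sites (30.4%) and 2348 of 7128 other crosslinks (32.9%; odds ratio 0.889, 0.633 to 1.23, exact adjusted p = 0.652). In coding sequence they were 22 of 90 sites (24.4%) and 615 of 2837 other crosslinks (21.7%; odds ratio 1.17, 0.682 to 1.93, exact adjusted p = 0.652). A crosslink in all 5 libraries was found at 13 sites (4.80%, 2.58 to 8.06%) against 4.25% of other crosslinks. No difference in library support was detected, and the interval leaves room for odds from 0.708 to 1.23 times those of other crosslinks. Taking 1 position per gene, the one with the most libraries, changed the call: 77 of 259 genes then had 3 or more libraries at their best site, against 1868 of 4061 genes at their best other crosslink (odds ratio 0.497, exact adjusted p = 2.96e-06). That setting keeps the best of several other crosslinks where a gene has many. By number of libraries, 194 sites had 2, 51 had 3, 13 had 4 and 13 had 5. All 13 sites with 4 libraries lay in 3′ UTRs, and of 90 coding sites 0 had 4 (upper bound 4.02%) while 3 had 5. Of other coding crosslinks, 5.04% (4.26 to 5.91%) had 4, an interval that does not overlap that of the sites; this single class was not tested. Counted at 4 or more libraries, the odds ratio for coding sequence turned to 0.445 (0.0893 to 1.36; exact adjusted p = 0.444).

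**Figure D2:**
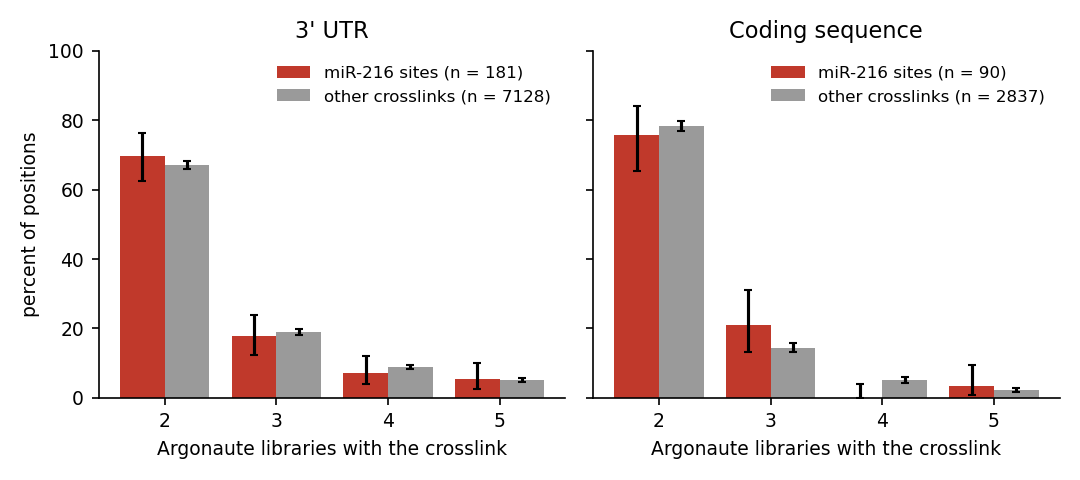
Share of positions (vertical axis, percent) with a crosslink in 2, 3, 4 or 5 Argonaute libraries (horizontal axis) for miR-216 sites and for other crosslinks, in 3′ UTRs and in coding sequence, with exact 95% intervals that cover counting error only. In 3′ UTRs 30.4% of sites and 32.9% of other crosslinks have 3 or more libraries; in coding sequence 21.1% of sites and 14.5% of other crosslinks have 3, and 0% and 5.04% have 4.

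Full seed matches were set against weaker ones within the sites. A crosslink in 3 or more libraries was found at 32 of 87 sites with a 7mer or 8mer (36.8%, 26.7 to 47.8%) and at 45 of 181 with a lesser match (24.9%, 18.7 to 31.8%). The odds ratio was 1.75 (0.972 to 3.16; exact p = 0.0604, adjusted p = 0.296), which did not pass the threshold of 0.05. Full seed matches made up 62 of 181 sites in 3′ UTRs (34.3%) and 25 of 87 sites in coding sequence (28.7%; odds ratio 1.29, 0.718 to 2.36, exact adjusted p = 0.652). None of the 10 tests passed, and none had an unadjusted p under 0.05.

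Sites named for a single microRNA were compared by name. Both names cover only offset 6mers and the form with the extra A, since every full seed match carried the shared name. Those named miR-216a-5p lay in 3′ UTRs in 59 of 79 cases (74.7%, 63.6 to 83.8%), against 47 of 79 of those named miR-216b-5p (59.5%, 47.9 to 70.4%), with an odds ratio of 2.00 (0.969 to 4.20; exact p = 0.0620, adjusted p = 0.296). The 113 sites with the shared name were in 3′ UTRs in 75 cases (66.4%). A crosslink in 3 or more libraries was found at 21 of 79 miR-216a-5p sites (26.6%) and 19 of 79 miR-216b-5p sites (24.1%; odds ratio 1.14, 0.524 to 2.50, exact adjusted p = 0.855). Among full seed matches, 45 of the 56 for miR-216a (80.4%, 67.6 to 89.8%) and 17 of the 31 for miR-216b (54.8%, 36.0 to 72.7%) lay in 3′ UTRs, a difference that was not tested. Support in 3 or more libraries was 33.9% for miR-216a and 41.9% for miR-216b within these full matches.

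Sites as a whole were in 3′ UTRs in 181 of 271 cases (66.8%, 60.8 to 72.4%), and other crosslinks were there in 7128 of 9965 (71.5%, 70.6 to 72.4%; odds ratio 0.800, 0.616 to 1.05, exact adjusted p = 0.296). Within the 3′ UTR the sites were spread along its length. Their median distance from the stop codon was 1199 nt (quartiles 477 and 1956 nt) and that of other crosslinks was 974 nt (389 and 2093 nt), in UTRs of median length 2748 and 2744 nt. By name, the medians were 1130 nt for miR-216a-5p, 1231 nt for miR-216a/b-5p and 1221 nt for miR-216b-5p. Bex3 and Morn2 had the sites closest to the stop codon, both at 20 nt, and Zbtb37 the farthest, at 15826 nt of a UTR of 16999 nt. Within 500 nt of the stop codon lay 48 of 181 sites (26.5%) and 30.9% of other crosslinks (odds ratio 0.807, 0.566 to 1.14, exact adjusted p = 0.555). Within 500 nt of the transcript end lay 54 of 181 sites (29.8%) and 27.0% of other crosslinks (odds ratio 1.15, 0.818 to 1.60, exact adjusted p = 0.652). With the UTR cut into 5 equal stretches from the stop codon onward, the sites held 17.7, 23.8, 17.7, 21.5 and 19.3%, and other crosslinks 24.9, 20.1, 17.2, 16.6 and 21.2%. All 181 lay in the last exon. The bases on either side were as rich in A and U at sites as at other crosslinks, with a median of 63.3% for both in 3′ UTRs and 55.0% for both in coding sequence over 30 nt on each side.

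**Figure D3:**
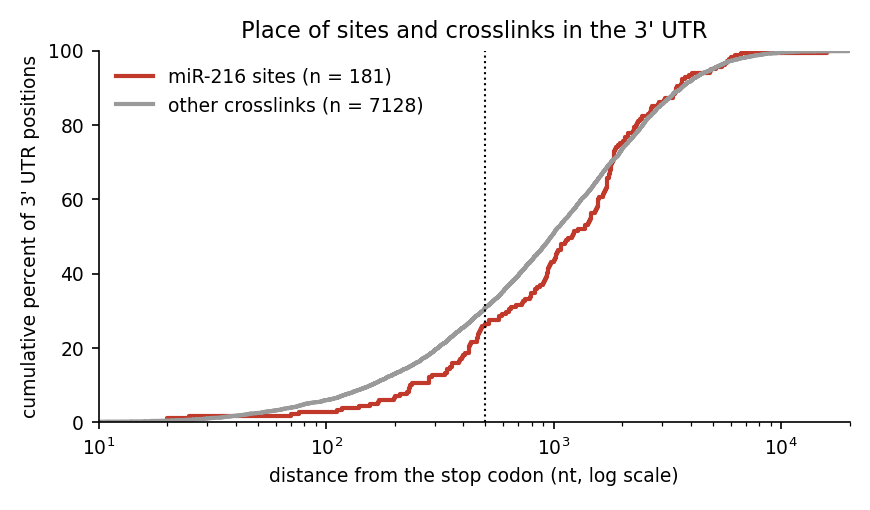
Cumulative percent of 3′ UTR positions (vertical axis) against distance from the stop codon (horizontal axis, nt, log scale) for the 181 miR-216 sites and the 7128 other crosslinks, with a dotted line at 500 nt. Past the first few sites, the line of the sites runs below that of other crosslinks up to more than 1000 nt. At 500 nt the shares are 26.5% against 30.9%, a difference that did not pass the test, and the lines meet further out.

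Coding sites sat in the later part of the reading frame in many cases. Their median place was 61.2% of the way along the coding sequence, and that of other coding crosslinks was 52.4%; this was not tested. The site in Asxl1, a partner of the BAP1 deubiquitinase that acts on histone H2A, had its middle base 5 nt before the end of the coding sequence, in exon 12 of 12. The site in Eif5, which stimulates GTP hydrolysis by eIF2 at the start codon, lay 85.6% along, in exon 11 of 12. The site in Strbp, a double-stranded RNA-binding protein, lay 58.5% along, in exon 11 of 17. The last exon held 14 of 90 coding sites (15.6%).

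The place of the crosslinked T differed with the letters of the match. Among the 56 full matches for miR-216a, which begin with T, the crosslink lay inside the match in 29 (51.8%, 38.0 to 65.3%), before it in 18 and after it in 9. In 17 of these the crosslinked base was the first T of the match, the base that faces position 8 of the microRNA. Among the 31 full matches for miR-216b, which begin with A and so offer no T there, the crosslink lay inside in 5 (16.1%, 5.45 to 33.7%), before in 14 and after in 12. Of the 8mers, those in Zfp26, B230219D22Rik, Zdhhc24, Nap1l2, Ndrg4 and Phc3 had the crosslink at this first T. Offset 6mers had the crosslink before, inside and after the match in 59, 36 and 48 of 143 cases.

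Other microRNA families had matches beside some of the sites. Full 7mers of 21 families known from retina or common in brain were searched within 20 nt of the crosslink; miR-124 was not analysed here. At least 1 was present at 66 of 271 sites (24.4%, 19.4 to 29.9%), at 266 of 899 other crosslinks of the same genes (29.6%) and at 3238 of 9962 other crosslinks in messenger RNA exons (32.5%). The families found most often at sites were miR-17, miR-19 and miR-181 (8 sites each), miR-182 (7) and miR-15/16 (6). Among the 899 other crosslinks of the same genes, these families were present at 25, 27, 40, 16 and 26 in that order. No single family was tested. A closer window was a 7mer that starts from 1 base before to 3 bases after the crosslinked T. It was met at 50 of 268 sites (18.7%) and at 24.7% of other crosslinks, and by library number at 28 of 191 sites with 2 libraries (14.7%), 12 of 51 with 3 (23.5%), 3 of 13 with 4 (23.1%) and 7 of 13 with 5 (53.8%). Other crosslinks with 2, 3, 4 and 5 libraries met it in 19.2, 34.0, 41.5 and 45.2%. The part these neighbouring matches play in the library support of the sites was not tested.

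Such a neighbour was present at 7 sites with 5 libraries, and the sequences above show most of these 7mers. In Eif4g2 the letters gcacttt, a miR-17 family 7mer, directly follow AGAGAT, and the crosslink is the final T of AGAGAT. In Arfgef1 a miR-19 7mer directly follows TGAAGATT, again with the crosslink on the last T of the match. In Mybl1 a miR-15/16 7mer ends 3 nt before the match and starts 1 base after the crosslink. Foxn3 has a miR-135 7mer 1 nt after its core, Synpr a miR-181 7mer that ends 5 nt before its match and begins just outside the printed stretch, Eif5 a miR-182 7mer that abuts the match, and Rnf6 a miR-30 7mer that overlaps it. No 7mer of the 21 families lay within 20 nt of the crosslink in Atxn1l, Megf9, Slc16a1, Asxl1 or Strbp.

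The same genes carried many crosslinks away from the site. Of 259 genes, 196 (75.7%, 70.0 to 80.8%) had at least 1 other crosslink in messenger RNA exons, with 899 in all and a median of 2 per gene (quartiles 1 and 5). Of the 899, 667 lay in 3′ UTRs and 312 (34.7%) were shared by 3 or more libraries. Rorb, a nuclear receptor of photoreceptor development, had the most with 33, followed by Map1b, a microtubule-associated protein of axons, with 30. Tnrc6a, the GW182 protein that links Argonaute to the deadenylases, had 24, and Neurod1, a proneural bHLH factor, had 22. In these genes the miR-216 site was 1 position among many: in Rorb, Map1b and Neurod1 it had 2 libraries while another crosslink of the gene had 5.

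Set against the best other crosslink of its gene, again more than 20 nt from any site, the site had fewer libraries in 106 of the 196 genes (54.1%, 46.8 to 61.2%), the same number in 65 (33.2%) and more in 25 (12.8%, 8.43 to 18.3%). A gene offers several other crosslinks for 1 site, so the best of them is favoured. In 25 genes the site had 2 libraries while another crosslink had 5; these include Btg2 (an antiproliferative factor of neural progenitors), Qk (an RNA-binding splicing regulator), Suz12 (a Polycomb repressive complex 2 subunit), Smad5 (a BMP effector), Dusp6 (an ERK phosphatase), Pbx2 and Csnk1a1. The genes where the site had more libraries than any other crosslink include Foxn3, Eif5, Megf9 and Slc16a1, each with 5 libraries at the site and at most 2 elsewhere. They also include Arfgef1 (5 and at most 3), Rnf6 (5, and at most 3 beyond 20 nt, but 4 at a crosslink within 20 nt of the site), Atxn1l (5 and at most 4), Miga1 and Zfp26 (4 and at most 2), Bahd1, Mbnl2 and Ralgps2 (4 and at most 3), and Mef2d, Rnf2, Cflar and Trip11 (3 and at most 2). The nearest other crosslink on the transcript lay a median of 310 nt from the site over 208 sites, and within 100 nt in 54 (26.0%).

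Foxn3 had its site 232 nt into a 3′ UTR of 6189 nt. Its crosslinks were at 233 nt with 5 libraries, at 252 and 254 nt with 2 each, and, far from the site, at 3397 and 4666 nt with 2 each. Dyrk2, a kinase of the DYRK family, had 3 sites with 2 libraries each, at 575, 3767 and 3915 nt of a 3′ UTR of 3949 nt. Its other crosslinks at 2770 and 3103 nt had 4 libraries, more than any of its sites. In Mybl1 the site at 1448 nt had 5 libraries, and 2 other crosslinks of the same UTR also had 5. In Zfp26 the 8mer at 2440 nt had 4 libraries, and an offset 6mer for miR-216b at 2240 nt had 2.

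**Figure D4:**
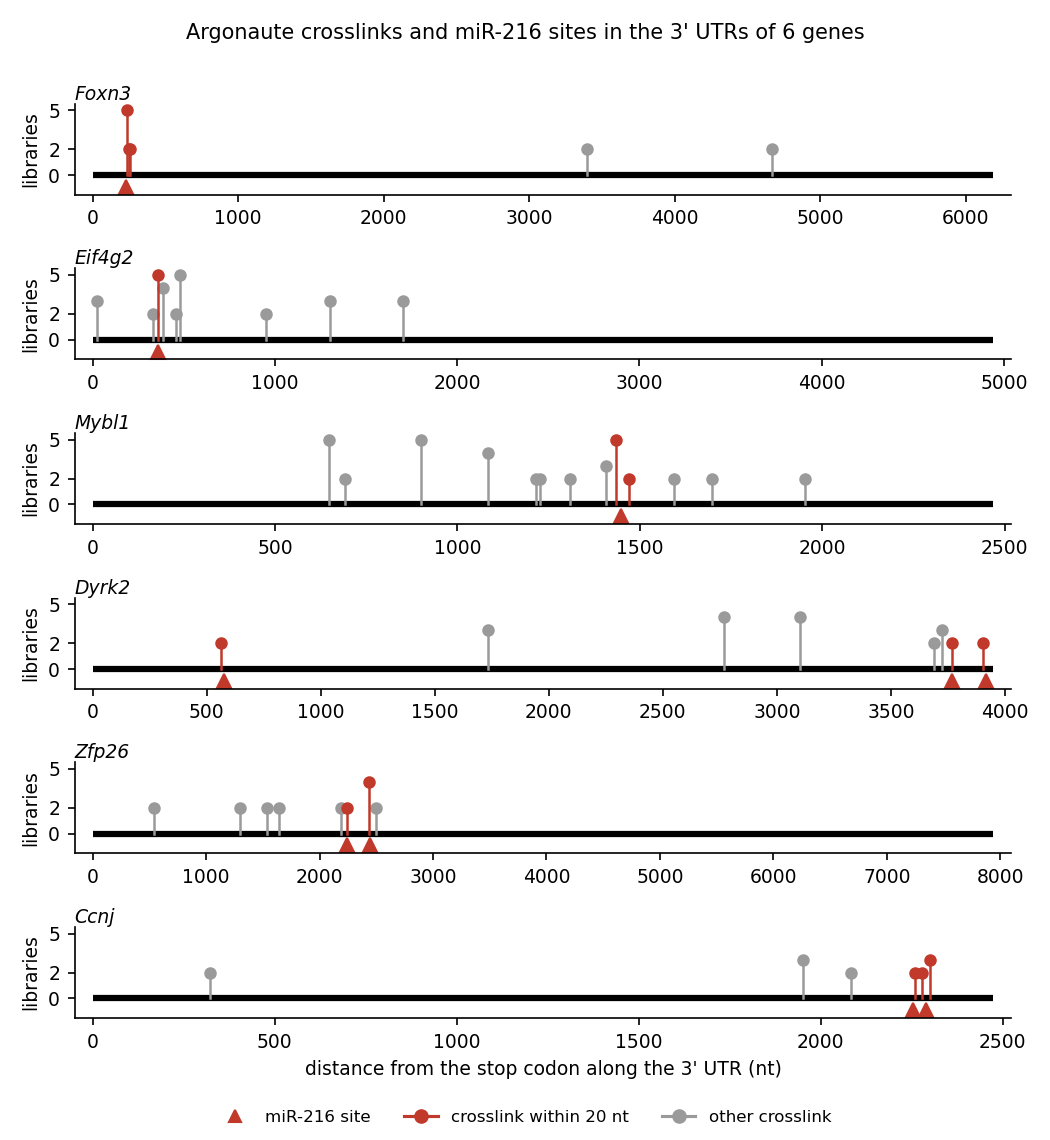
Maps of the 3′ UTRs of Foxn3, Eif4g2, Mybl1, Dyrk2, Zfp26 and Ccnj, with distance from the stop codon in nt (horizontal axis), the number of Argonaute libraries at each crosslink as stem height (vertical axis), and triangles for the miR-216 sites. In Foxn3 the crosslink with 5 libraries lies at the site 232 nt into the UTR, whereas in Dyrk2 the crosslinks with 4 libraries lie away from its 3 sites.

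All 259 genes with a site were assigned from textbook knowledge to 18 functional groups. The last group holds genes left without a function, and the scores were not used. Counts of sites with 3 or more libraries in each group stand beside 28.4% of all sites and 29.7% of other crosslinks, and no group was tested against these. The share of each group among all crosslinked genes was not measured. The size of a group is therefore not shown to be particular to these sites. Transcription factors formed the largest group, with 35 sites in 34 genes, 27 of them in 3′ UTRs and 11 with 3 or more libraries. Retinal regulators among them were Hes1, a Notch-driven repressor that keeps progenitors dividing (3′ UTR, 238 nt into 368 nt, 4 libraries), Neurod1 (3′ UTR, 1199 nt into 1443 nt, 2 libraries), Mef2d, a photoreceptor regulator (3′ UTR, 3 libraries), Rorb (coding, exon 4 of 10, 2 libraries) and Onecut1, a horizontal cell factor (coding, exon 1 of 2, 2 libraries). Mef2d held a miR-216a 7mer, and the other 4 held offset 6mers. Mybl1, a Myb family factor, is described above. Cic, the Capicua repressor that acts below receptor kinases, had a site with 4 libraries 591 nt into a 3′ UTR of 624 nt, and its binding partner Atxn1l had 5 libraries at 4934 nt of 5114 nt. Signal-driven factors were Jun, Relb, Smad5, the Smad-binding corepressor Skil, and the Groucho corepressor Tle4 with 3 libraries; Clock drives circadian transcription and Rfx3 ciliary genes. Zinc finger genes included Zfp26, Zfp292, Zfp322a, Zfp326, Zfp37, Zfp397, Zfp770, Zfp81, Zkscan1, Zkscan8, Zbtb37 and Zic5, and the remaining genes included Atf7, Bahd1, Cebpg, Lrrfip1, Mga and Pbx2.

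Chromatin and transcription machinery had 30 sites in 28 genes, 17 in 3′ UTRs, with 7 at 3 or more libraries and 13 with a full seed match. Histone methyltransferases were Kmt2c, Kmt2d, Setd7, Suv39h2 and the Polycomb subunit Suz12, and Prmt5 methylates arginine; each had 2 libraries. Polycomb genes were Rnf2, Phc3, Asxl1 and Suz12, and Asxl1 had 2 coding sites, with 5 and 2 libraries. Kdm7a removes histone methyl groups, Kansl3, Brd1 and Jade3 belong to acetyltransferase complexes, and Smarcc1, a core subunit of the BAF remodeller, had 3 libraries at a full seed match. Cdk19 (a Mediator kinase), Chrac1 and Elp2 (Elongator) had 3 libraries in coding sequence. The others were Anp32e, Atxn1l, Atxn7, Dcaf7, Eaf1 with 2 sites, Gtf3c4, Nap1l2, Nap1l5, Phf20l1, Rsf1 and Wdr82.

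Kinases, phosphatases and their regulators had 24 sites in 22 genes, 20 in 3′ UTRs, and 1 had 3 or more libraries (4.17%, against the 29.7% of other crosslinks; not tested). That site was in Ptpn12, a tyrosine phosphatase. The kinases were Abl2, Braf, Camk2d, Csnk1a1, Dgkh, Dyrk2, Jak2, Map4k4, Mapk8, Ppip5k2 and Stk4, and the phosphatases and their subunits Ankrd52, Dusp6, Ppm1g, Ppm1h, Ppm1l, Ppp1r18 and Ppp4r3a. Grb10 and Nck2 are adaptors of receptor signalling, and Pde4b breaks down cyclic AMP. Placed by hand in other groups were, among others, the kinases Cdk19 and Cdc7 with 3 libraries, and Epha5 and the phosphatase Cdc14b with 2. The share of the kinase and phosphatase group depends on that assignment. RNA-binding and RNA-processing proteins had 21 sites in 21 genes, 14 in 3′ UTRs and 6 with 3 or more libraries. Strbp had 5, the splicing regulator Mbnl2 had 4, and Gtpbp1, Matr3, Prpf19 (a spliceosome component) and Ythdf3 (a reader of N6-methyladenosine) had 3. Among those with 2 libraries were Tnrc6a and the deadenylase Cnot6l of the microRNA pathway itself, the m6A writer subunit Mettl14, the A-to-I editor Adarb1, Qk, Elavl2, Mex3a, Cpsf6, Sfpq, Sf3b3, Larp4b, Serbp1, Ssb, Khdc4 and Krr1.

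Vesicle trafficking genes had 18 sites in 18 genes, 14 in 3′ UTRs and 8 with 3 or more libraries. Synpr, the synaptic vesicle protein synaptoporin, had 5 libraries 117 nt into its 3′ UTR, and Lnpep, an aminopeptidase of recycling vesicles, had 4. Syt1, the calcium sensor of transmitter release, Stxbp5 (tomosyn), Dmxl1, Laptm4a, Trip11 and Zdhhc24 had 3. Atp6v1a, Copz1, Dnajc13, Golga1, Lamp2, Plekha3, Rundc3b, Stx12, Wdfy3 and Zdhhc17 had 2. Small GTPases and their regulators had 17 sites in 17 genes, 11 in 3′ UTRs and 5 with 3 or more libraries. Arfgef1, an exchange factor for Arf at the Golgi, had 5, Ralgps2 had 4, and Arf3, Dennd6a and Rab1a had 3, while Rac1, Rala, Rhoq, Madd, Rasa2, Rasgef1a, Arhgap21, Arhgap35, Tbc1d30, Rgs4 and Rgs12 had 2.

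Cell cycle and DNA repair genes had 16 sites in 15 genes, 11 in 3′ UTRs. Cdc7, a kinase that fires replication origins, Ercc8 and 1 of the Ccnj sites had 3 libraries, and the cyclins Ccne2 and Ccnf, the phosphatase Cdc14b, Btg2, Xrcc6, Ercc4, Mdc1, Nuf2, Ccp110, Parp6 and Prr11 had 2. Ubiquitin, SUMO and COP9 signalosome genes had 15 sites in 15 genes, 5 with 3 or more libraries. The ligases Rnf6 and March6 had 5 and 4, the conjugating enzyme Ube2h had 3, and Cops4 had 3 while its fellow signalosome subunit Cops5 had 2. Btbd7, Huwe1, Sae1, Trim2, Trim68, Ubr3, Usp33, Znrf1 and Zranb1 had 2.

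Cytoskeleton, motor and cilia genes had 14 sites in 13 genes, of which 10 lay in coding sequence. Ift80 (ciliary transport), Sncaip and Twf1 (an actin-capping protein) had 3 libraries, and Carmil1, Dlgap2, Dync1h1, Kif1b, Map1b with 2 sites, Marcks, Sorbs2, Sptbn1 and Wdr47 had 2. Metabolic and mitochondrial genes had 17 sites in 16 genes, 9 in coding sequence. Miga1, which acts in mitochondrial fusion, had 4, and Hmgcs1, an enzyme of sterol synthesis, had 2. Agpat5, Yme1l1 and 1 of the 2 Fam126b sites had 3, and Cpox, Enox1, Entpd7, Gdpd1, Got1, Lyrm7, Ndufv2, Oxr1, Pank3 and Scd1 had 2. Translation factors had 6 sites in 5 genes, 5 of them coding: Eif4g2, an eIF4G relative, had 5 libraries in its 3′ UTR and 2 at a coding site, Eif5 had 5, and Eef2, Eif3c and Eif4ebp1 had 2.

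Adhesion and guidance genes had 9 sites in 9 genes: Megf9, a membrane protein with EGF-like domains, had 5 libraries, the axonal adhesion protein Cntn1 had 3, and Adgrl2, Cldn12, Epha5, L1cam, Lrp11, Plxnb2 and Plxnd1 had 2. Protein folding and secretion genes (7 sites) were Cpd with 4, Man2a1 and Ssr1 with 3, and Emc2, Hsp90b1, Mpi and Stt3b with 2. Secreted and matrix proteins (7 sites in 6 genes) were Fam19a5 with 3 and Fjx1, Gdf11, Mdk, Pxdn and Spock2, which had 2 sites, with 2. Spock2 had 1 crosslink in messenger RNA exons, so its 2 sites rest on the same crosslink. Gdf11 is known to limit the production of ganglion cells in retina. Transporters (5 sites in 4 genes, all in 3′ UTRs) were Slc16a1, a lactate and pyruvate carrier, with 5, Slc8a1, a sodium and calcium exchanger, with 3, and Slc25a44, with 2 sites, and Slc26a2 with 2. Cell death and other signalling genes were Bcl2l11, the proapoptotic BH3 protein Bim, with 4, Cflar, an inhibitor of death receptor signalling, with 3, and Amer2, Bex3, Ndrg4 and Nfkbib with 2. Nuclear transport genes were Tnpo1 with 3 and Kpna3, Pom121 and Ranbp2 with 2. A further 19 genes with 20 sites were given no function here, and 10 of those sites had 3 or more libraries, led by B230219D22Rik and Fam91a1 with 4.

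**Figure D5:**
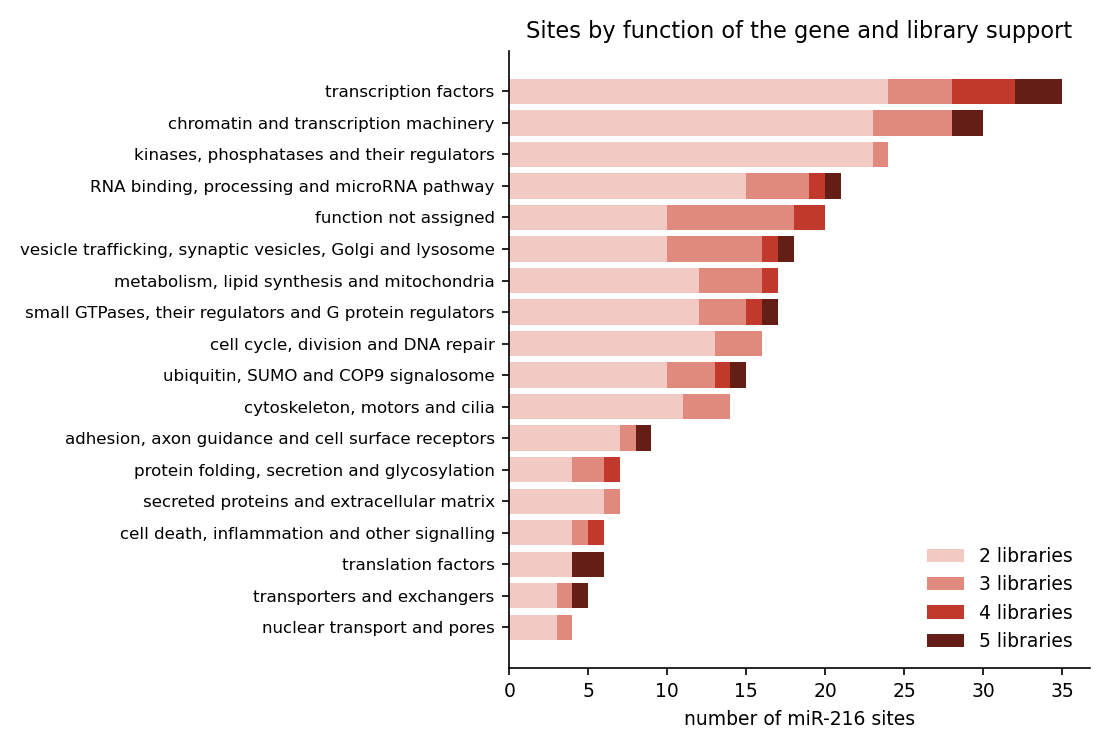
Number of miR-216 sites in messenger RNA exons (horizontal axis) for 18 functional groups of genes (vertical axis), with shades for crosslinks in 2, 3, 4 and 5 libraries. Transcription factors hold the most sites, 35, of which 11 have 3 or more libraries, and the kinase and phosphatase group has 1 of 24. Groups were assigned by hand, some kinases lie in other groups, and group sizes over all crosslinked genes were not measured.

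Lists of retinal and pathway genes were counted for sites and for crosslinks. Of all 4124 genes with a crosslink in messenger RNA exons, 259 (6.28%, 5.56 to 7.06%) had a site, and the counts by list, which were not tested, stand beside that share. Of 25 amacrine genes, 15 had a crosslink in messenger RNA exons and 2, Neurod1 and Onecut1, had a site. Both also stand in the list of another cell class, so no gene listed for amacrine cells alone had a site. Of 13 photoreceptor genes, 8 had a crosslink and 3 (Mef2d, Rorb and Neurod1) a site, and of 5 horizontal cell genes 3 had a crosslink and Onecut1 a site. Of 20 progenitor and Müller glia genes 15 had a crosslink and 2, with Hes1 among them, a site. Ganglion cell genes (10 of 13 crosslinked) and bipolar genes (3 of 7) had no site in messenger RNA exons. Markers of other ocular cells were crosslinked in 2 of 15 cases (Kdr and Pdgfra) and had no site. Of 15 forkhead genes 5 had a crosslink and Foxn3 alone a site. Of 25 genes of the microRNA pathway 19 had a crosslink and 2, Tnrc6a and Cnot6l, a site.

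Genes reported as miR-216a or miR-216b targets, all but Foxn3 from other systems, were counted in the same way. Of 10 such genes, 7 had a crosslink in messenger RNA exons and 2, Jak2 and Foxn3, had a site. Foxn3 is named in the study's own title, so its site adds no outside support. Jak2, a cytokine receptor kinase, had its site 827 nt into a 3′ UTR of 1232 nt with 2 libraries, as an offset 6mer for miR-216a. Of those crosslinked without a site, Snx5 had 3 crosslinks, Ybx1 had 2 and Smad7 had 1.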

How the data were processed

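The deposited tables hold, as the score of each position, the number of Argonaute libraries that contain the crosslink (per the file headers for crosslinks; the miR-216 table has no header, and all 404 of its entries could be paired with an equally scored crosslink at most 15 nt away). Tools listed in the submitters' processing notes are STAR, bedtools and CASAVA 1.8.2, with the mm10 build; further steps are not stated there. Entries were reduced to 394 distinct sites and annotated with GENCODE M21 (3′ UTR before coding sequence); match types were read from spliced transcripts, allowing for 2 bases on either side of the interval. Other crosslinks lay more than 20 nt from any site. Shares carry exact Clopper-Pearson 95% intervals, and groups of positions were tested by Fisher's exact test (two-sided) in scipy 1.17.1 under Python 3.11.15, adjusted by Benjamini-Hochberg over 10 tests at 0.05; the tests were also run on simulated data. The 7 libraries were grouped by their labels as 5 Argonaute and 2 IgG. Members, lists and functional groups were chosen with earlier results of these data known. The genes named are those with the highest scores, with several sites or with an 8mer, members of the lists, and the functional groups; the 8mer sequences printed and the neighbouring family window were chosen after values were seen. Some genes are counted but not reported here by name. Alternatives changed the library threshold, distances, annotation and the number of positions per gene.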

Additional observations from a re-analysis of the deposited data

How the results depend on the processing

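No paired analysis was possible because the tables pool the 5 Argonaute libraries without values of single libraries, which also means that leaving out a library could not be tried. Taking 1 position per gene, that with the most libraries, gave an odds ratio of 0.497 (exact p = 2.96e-07) for 3 or more libraries at sites against other crosslinks; by its construction it picks the best of several other crosslinks and so raises their share. The same choice reversed the odds ratio for the last 500 nt of the UTR to 0.843. Counting only crosslinks in 5 libraries gave odds ratios of 1.13 for all sites and 1.09 for those in 3′ UTRs, and counting 4 or more gave 0.445 for coding sites, all turned in direction and none past the threshold; the cause was not tested. The other alternatives kept their direction and side of the threshold. The share near the stop codon came closest to a call, with odds ratios of 0.609 within 250 nt (exact adjusted p = 0.207), 0.730 within 1000 nt (0.207) and 0.633 with 1 position per gene (0.0885). Before adjustment, Fisher's exact test gave p = 0.0399, 0.0419 and 0.00885 for these settings, each under 0.05. The last setting again keeps the position with the most libraries in each gene. Full seed matches had an odds ratio of 2.39 for 8mers alone and 1.11 at 4 or more libraries. Depth is unknown, abundance of the RNAs was not measured, and the IgG libraries were not analysed here, so background crosslinking was not subtracted.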
